A study of Mus musculus with 2 samples.

Results

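The genes of the enzymes that couple glucuronic acid, glutathione, sulfate or an acetyl group to other molecules were compared between mouse small-intestinal organoids grown with the cytokine RankL and organoids grown without it. They were chosen by name. Every non-control probe whose RefSeq accession maps to a mouse gene of the Ugt, Gst (alpha, kappa, mu, omega, pi, theta and zeta), Mgst or Sult families, or to Nat1 or Nat2, was taken. The rule found 57 genes with 70 probes, of 32235 genes or accessions with 41174 probes on the array. By class there were 15 Ugt, 20 Gst, 3 Mgst, 17 Sult and 2 Nat genes. The naming rule uses no measured value, but the families were picked with earlier results of these data known. The reference annotation has 72 genes with such names, and 15 of them had no probe that could be named here, among them Gstk1, Gstp2, Sult2a1, Sult2a2 and 6 Ugt1a genes.

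Conjugating enzymes, also called phase II enzymes, make drugs, plant compounds, bile acids, steroids and products of lipid peroxidation more soluble, so that transporters can carry the conjugates out of the cell. UDP-glucuronosyltransferases (Ugt) sit in the endoplasmic reticulum and use UDP-glucuronate, glutathione transferases (Gst in the cytosol, Mgst in membranes) use glutathione, sulfotransferases (Sult) use the sulfate donor PAPS, and the N-acetyltransferases (Nat) use acetyl-CoA. The small-intestinal epithelium is known as a main site of this metabolism outside the liver.

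Organoids are epithelial structures grown in a gel from intestinal crypts, here of wild-type mice, with EGF, R-spondin and Noggin in the medium. The sources used here do not give the strain, sex or age of the mice. The treated group received recombinant mouse RankL (the ligand of the receptor RANK) at 50 to 200 ng/ml with new medium on days 2 and 5, and the untreated group received none. Which dose and harvest time the hybridised RNA stands for is not given in the sources used here. M cells, the antigen-sampling cells over Peyer's patches, and their induction by RankL in culture are named in the study's title. Total RNA of both groups was hybridised to 2 dual-colour arrays, with RankL in the green dye Cy3 on array 1 and in the red dye Cy5 on array 2. The arrays are a dye swap of 1 RNA pair and thus 1 replicate, so no test was possible, and nothing in the labels shows that separate cultures were used. Each ± below is the SD between both arrays. It covers technical error, not differences between cultures, and the number of arrays limits the precision.

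A probe counted as measured if both arrays gave a signal well above background for at least 1 of the RNAs, RankL or untreated. By this rule 12877 genes or accessions were measured. All 10 genes of an M cell list were at least 2-fold higher with RankL, with a median log2 ratio of 4.54. However, this list was chosen with earlier results of these data known. The 8 epithelial markers were all measured with a median of -0.22, whereas 5 of 7 fibroblast markers, all 7 leukocyte markers and the hepatocyte markers Alb and Ttr were not measured. With the sign of the dye swap left unturned, 0 genes of the array and 0 conjugating enzyme genes met the size rule given next. However, that rule asks for the same direction on both arrays. A gene whose RankL ratios agree in sign cannot meet it when unturned, so the count does not measure dye bias in such genes.

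Most measured conjugating enzyme genes had less signal in the RankL RNA. A gene was called lower or higher with RankL if its mean log2 ratio of RankL over untreated reached 1 in size, which is 2-fold, and both arrays gave at least 0.5 in that direction. Of the 57 genes, 37 were measured. Among these 14 were lower (37.8%), against 2.5% of all measured genes called lower. The 14 are Gsta1, Gsta2, Gsta3, Gsta4, Gstm1, Gstm3, Gstm6, Mgst1, Ugt2a3, Ugt2b36, Ugt2b38, Ugt2b5, Sult1b1 and Sult1d1. A single gene, Sult2b1, was higher (2.7%), against 5.47% of all measured genes called higher. The other 22 met neither criterion.

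The median ratio of the 37 genes was -0.65, at -0.59 on array 1 and -0.74 on array 2, and that of all measured genes was 0.0086. Mean ratios below 0 were seen in 30 of the 37, while 6307 of the 12877 measured genes were below 0. Both arrays gave the same sign for 34 of the 37 genes, of which 28 were below 0 and 6 above. The median SD between arrays was 0.140 for these genes and 0.148 for all genes. A gene bright in 1 RNA alone can be measured only through that RNA, and 6 genes (Gstm7, Ugt2a1, Ugt2b36, Ugt2b37, Ugt2b38 and Ugt2b5) passed only through the untreated RNA. Of the 31 genes well above background in both RNAs on both arrays, 11 were lower and 1 was higher. Their median was -0.65, against 0.0060 for all genes that passed this stricter filter. The share of all genes called under this filter was not counted, so the 11 have no such share beside them.

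**Figure D1:**
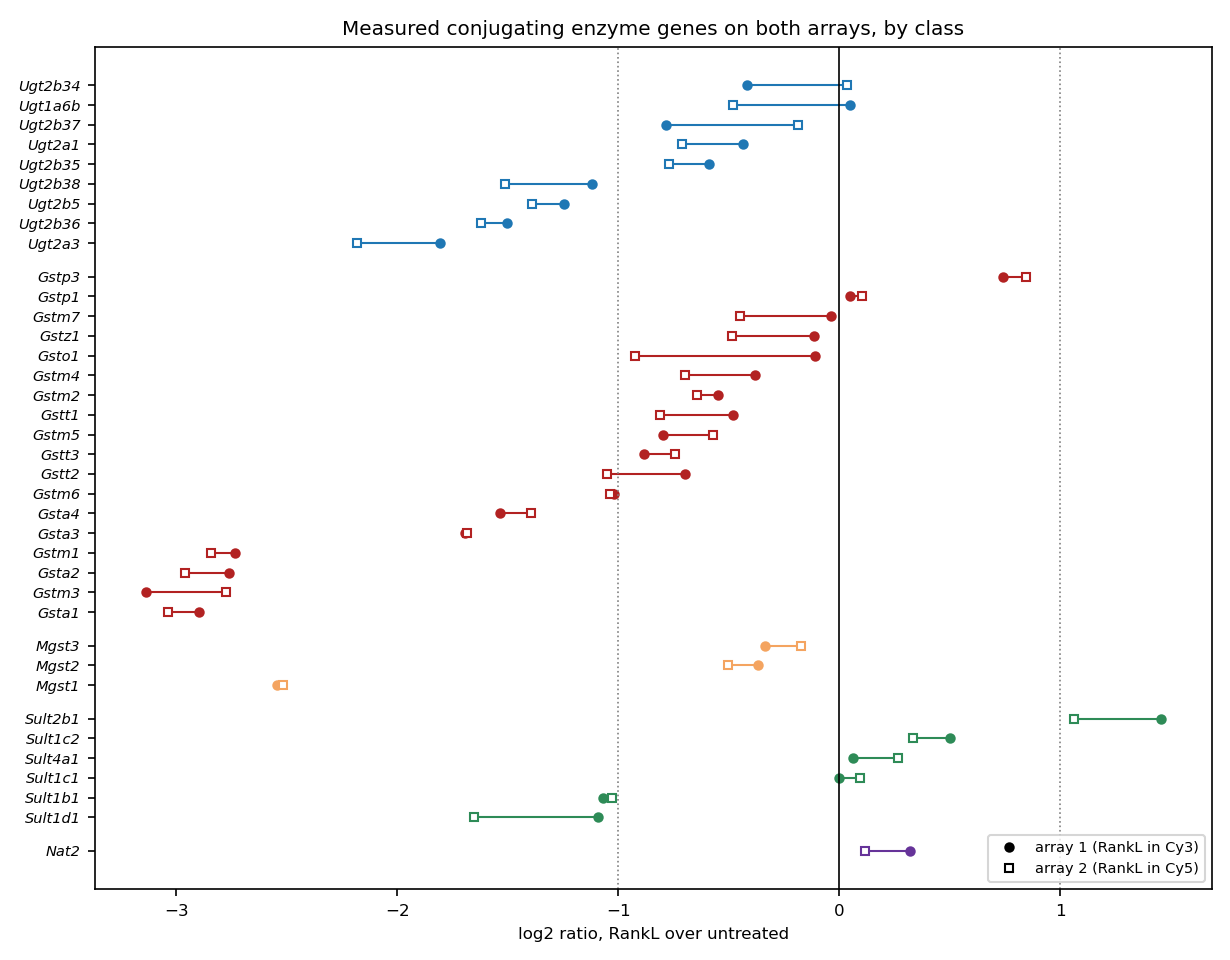
Log2 ratio of RankL over untreated (horizontal axis) for the 37 measured conjugating enzyme genes, grouped and coloured by class. Filled dots are array 1, open squares array 2, and the dotted lines mark 2-fold; Gsta1, Gsta2, Gstm1, Gstm3 and Mgst1 lie below -2 on both arrays, and Sult2b1 alone lies above 1 on both.

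The classes differed in their medians, which were not tested. All 9 measured Ugt genes had means below 0, with a median of -0.68, and 4 were lower. However, 5 of the 9 were measured only through the untreated RNA, which favours ratios below 0. Of the 4 Ugt genes above background in both RNAs on both arrays, 1 (Ugt2a3) was lower and the median was -0.45. The 18 measured Gst genes had a median of -0.75, and 7 were lower. The 3 Mgst genes had a median of -0.44, and 1 was lower. Over Gst and Mgst together 19 of 21 means were below 0. The 6 measured Sult genes lay on both sides of 0, with a median of 0.10 and a mean of -0.09, which differ in sign; 2 were lower and 1 was higher. The 1 measured Nat gene lay at 0.22. Within the Gst genes, the 4 alpha genes were all lower (median -2.27), the 7 mu genes had 3 lower (median -0.68), the 3 theta genes were all below 0 with 0 lower (median -0.81), and the 2 pi genes were above 0 (median 0.43), though Gstp1 read below 0 with median centring in place of loess. Because whole organoids were measured, fewer cells of a type and less RNA per cell cannot be told apart in any of these ratios.

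The alpha-class genes had some of the lowest ratios of the whole family. Gsta1 and Gsta2 encode close relatives that conjugate electrophiles and reduce lipid hydroperoxides. The Gsta1 probe read a spot signal of 2085 in RankL RNA and 21543 in untreated RNA on array 1, and 2688 and 22908 on array 2. The background beneath RankL signals was 18.5 on array 1 (Cy3) and 120 on array 2 (Cy5). Both untreated values thus lay far above both RankL values, and the normalized ratio was -2.97 ± 0.10, or 7.82-fold higher in untreated RNA. Gsta2 read 444.5 and 3953 on array 1 and 523 and 3733 on array 2, and its ratio was -2.86 ± 0.14 (7.26-fold).

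Gsta3, a further alpha-class enzyme, read 1697.5 in RankL and 7210.5 in untreated RNA on array 1, and 2058.5 and 6708 on array 2. Its ratio was -1.69 ± 0.0065 (3.22-fold), and another probe of the gene gave -1.55. Gsta4, whose enzyme acts on hydroxynonenal from lipid peroxidation, has a probe printed many times on the array. It gave -1.53 on array 1 as the mean of 7 spots (lowest -1.72, highest -1.38) and -1.40 on array 2 as the mean of 10 spots (lowest -1.69, highest -1.14). Every spot that was kept lay below -1, and the mean over arrays was -1.46 ± 0.098. Gsta1 and Gsta2 have similar sequences, and a probe of either may bind transcripts of the other, so their ratios may not be independent.

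The sequences upstream of Gsta1 and Gsta2 are shown because these neighbours on chromosome 9 had nearly the same ratio. In an alignment with gaps of the 250 bases before their start sites, identical bases made up 76.0% of the 250. Bases -120 to -1 are given 5′ to 3′ on the gene's strand, from RefSeq's promoter table of GRCm38.p6.
Gsta1, chr9:78230549-78230668, plus strand: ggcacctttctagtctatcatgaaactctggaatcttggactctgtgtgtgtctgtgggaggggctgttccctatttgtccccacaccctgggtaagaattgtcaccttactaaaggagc
Gsta2, chr9:78347146-78347265, minus strand: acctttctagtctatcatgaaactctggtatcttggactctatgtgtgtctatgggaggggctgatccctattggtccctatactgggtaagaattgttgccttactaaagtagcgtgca
The runs share long stretches with a shift of a few bases, while over the same 250 bases Gsta1 and Gsta3 were 61.6% identical. Only pairs within a family were aligned, so no share for unrelated promoters can be set beside these.

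The mu genes are neighbours with unlike ratios. The 7 genes lie next to each other on chromosome 3 in the order Gstm5, Gstm7, Gstm6, Gstm3, Gstm2, Gstm1 and Gstm4, and all 7 were measured. The 6 above background in both RNAs on both arrays ran from -2.96 in Gstm3 to -0.54 in Gstm4. Gstm1, the most studied mu enzyme, read 4222 in RankL and 41006 in untreated RNA on array 1, and 5699 and 43810 on array 2. The ratio was -2.79 ± 0.076 (6.91-fold), and another probe gave -2.52. Gstm3 read 1152 and 13483 on array 1 and 1985 and 13823.5 on array 2, which gave -2.96 ± 0.26 (7.76-fold). In both genes the untreated RNA was several times brighter in either dye.

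Gstm2 lies between these genes and read far closer to 0. It read 1072 in RankL and 2008 in untreated RNA on array 1, and 1603 and 2468 on array 2, with a ratio of -0.60 ± 0.065. Gstm6 was just inside the size rule at -1.03 ± 0.013 (2.04-fold), at -1.02 on array 1 and -1.04 on array 2. Gstm5, which is known for expression in brain and testis, lay at -0.68 ± 0.16, and Gstm4 at -0.54 ± 0.22. Gstm7 was not well above background in RankL RNA on either array. Its ratio was -0.24 ± 0.29, at -0.04 on array 1 and -0.45 on array 2, and gives no firm bound. The coding sequences of mu genes are alike, so cross-hybridisation between their probes may draw these ratios together.

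**Figure D2:**
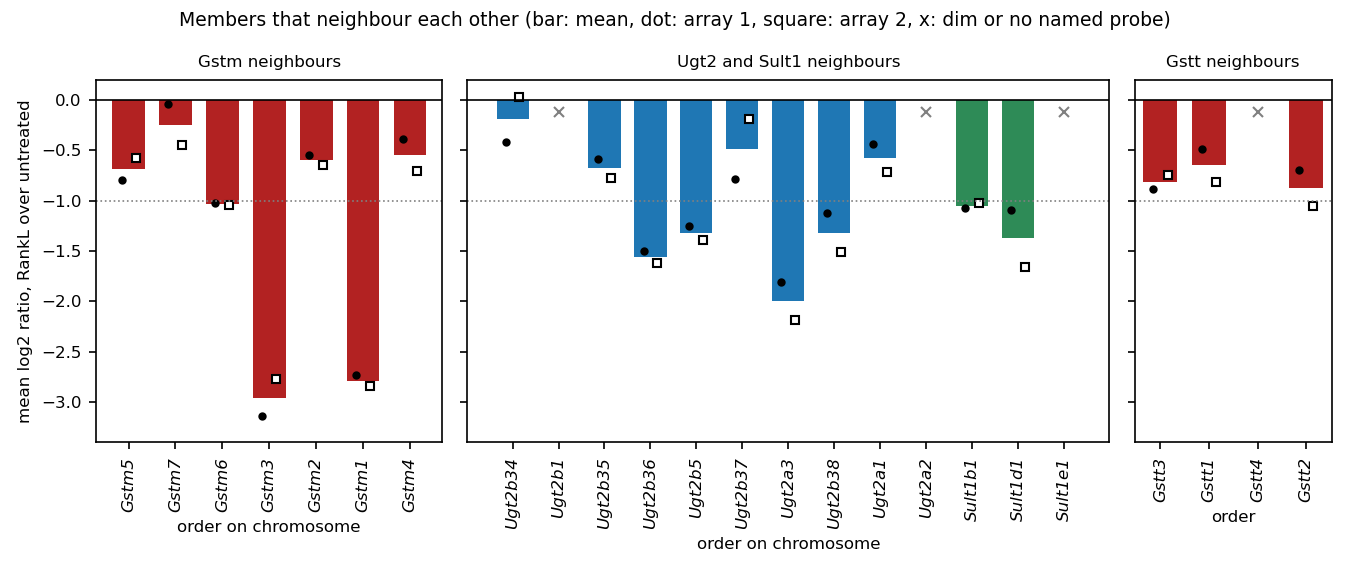
Mean log2 ratio of RankL over untreated (bars) with array 1 (dots) and array 2 (squares) for genes that neighbour each other, in the order of the GRCm38.p6 annotation; crosses mark genes that were dim or had no named probe, and the dotted line marks 2-fold lower. Gstm3 and Gstm1 reach below -2.7 on both arrays beside Gstm2 at -0.60, while the 10 measured Ugt2 and Sult1 genes, 5 of them measured only through the untreated RNA, run from -1.99 to -0.19.

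The theta genes, whose enzymes act on small halogenated and peroxide substrates, gave ratios close to each other. Gstt3, Gstt1 and Gstt2, neighbours on chromosome 10, lay at -0.81 ± 0.099, -0.65 ± 0.23 and -0.87 ± 0.25, a range of 0.227. None met the size rule, and Gstt2 came closest at -0.70 on array 1 and -1.05 on array 2. Gstz1, the maleylacetoacetate isomerase of tyrosine breakdown, lay at -0.30 ± 0.26. Gsto1, an omega enzyme that reduces dehydroascorbate, read -0.11 on array 1 and -0.93 on array 2. This SD of 0.58 was the largest of the 37 genes, so its mean of -0.52 is uncertain.

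The pi genes, whose enzymes conjugate electrophiles, were the Gst genes above 0 after loess, though not both after median centring. Gstp1 read 34129.5 in RankL and 53353 in untreated RNA on array 1, and 43208 and 44561 on array 2. Its normalized ratio was 0.07 ± 0.038, another probe gave -0.06, and median centring in place of loess gave -0.32, so it has no settled direction. Gstp3 read 304 in RankL and 278 in untreated RNA on array 1, and 392 and 168.5 on array 2. The red dye has the higher background (untreated on array 1, RankL on array 2), and the corrected ratio was 0.74 on array 1 and 0.84 on array 2, with a mean of 0.79 ± 0.073. It was 1.73-fold higher with RankL, short of the size rule.

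**Figure D3:**
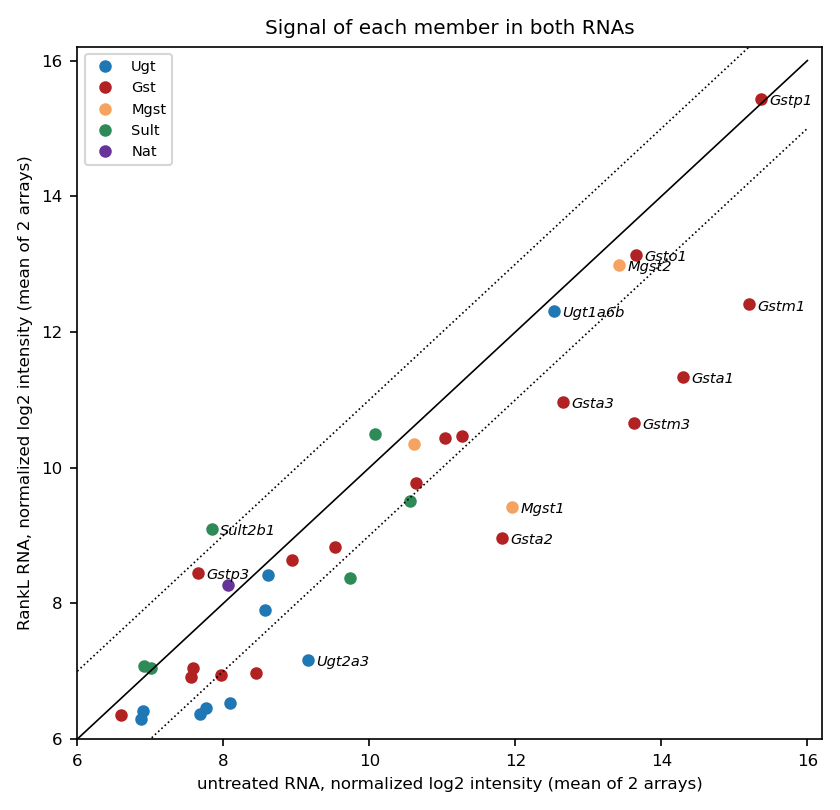
Normalized log2 intensity of the 37 measured genes in untreated RNA (horizontal) and RankL RNA (vertical), as means of 2 arrays and coloured by class; the solid line marks equal signal and the dotted lines 2-fold. Gsta1, Gstm1, Gstm3, Gsta2 and Mgst1 lie farthest below the line, Gstp1 lies on it at the top, and probes of different genes cannot be ranked by level.

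The membrane-bound enzymes split in the same way. Mgst1, a glutathione transferase and peroxidase of the endoplasmic reticulum and outer mitochondrial membrane, read 577 in RankL and 4350 in untreated RNA on array 1, and 744 and 4072 on array 2. Its ratio was -2.53 ± 0.020 (5.77-fold), and another probe gave -2.89. Mgst2 and Mgst3, which can also form leukotriene C from its epoxide precursor, lay at -0.44 ± 0.096 and -0.25 ± 0.11 and met neither criterion.

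The antioxidant response element is the DNA element through which Nrf2 is known to drive Gst genes. Its core was searched as TGACNNNGC on both strands, in windows from 250 bases before to 50 bases after each start site. Of the 37 measured genes 32 had such a window (42 windows in all). The core stood in 2 of the 13 lower genes with a window (Gsta3 and Mgst1) and in 2 of the 19 others (Gstm5 and Gstm7), or in 2 of 18 and 2 of 24 windows, against 12.4% of all 32851 windows. The stretches with the core in the lower genes are shown with it in capitals, from -150 to -91 in Gsta3 and from -100 to -41 in Mgst1, where it lies on the opposite strand.
Gsta3, chr1:21240435-21240494, plus strand: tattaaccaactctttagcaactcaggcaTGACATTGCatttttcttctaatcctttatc
Mgst1, chr6:138140427-138140486, plus strand: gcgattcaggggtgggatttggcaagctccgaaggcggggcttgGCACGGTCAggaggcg
The xenobiotic response element core GCGTG, which the Ah receptor binds, stood in 5 of the 13 lower genes (Gsta1, Gsta2, Gstm1, Sult1b1 and Sult1d1) and in 5 of the 19 others, or in 6 of 18 and 6 of 24 windows, against 32.4% of all windows. The HNF1 core GTTAAT stood in 3 of the 13 (Gsta3, Sult1d1 and Ugt2a3) and in 0 of the 19, or in 3 of 18 and 0 of 24 windows, against 7.10% of all windows. These counts describe letters in a window and show no binding.

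The Ugt genes called lower were 1 of the 2 measured 2a genes and 3 of the 6 measured 2b genes. Only 1 Ugt1 gene was measured, so these groups cannot be compared with it. Ugt2a3, known in intestine and liver for acting on bile acids, read 109 in RankL and 608.5 in untreated RNA on array 1, and 194 and 596 on array 2. Its ratio was -1.99 ± 0.26, or 3.99-fold higher in untreated RNA. It was the 1 Ugt gene called lower that was well above background in both RNAs on both arrays. Ugt2b36 read 56 and 319 on array 1 and 137 and 260 on array 2, with a ratio of -1.56 ± 0.082 (2.95-fold). Ugt2b enzymes glucuronidate steroids, bile acids and drugs. The RankL signal of Ugt2b36 was well above background on 1 of 2 arrays.

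Ugt2b5 read 52 in RankL and 246 in untreated RNA on array 1, and 133.5 and 216.5 on array 2. Ugt2b38 read 54 and 250 on array 1 and 136.5 and 192.5 on array 2. In RankL RNA neither was well above background on either array, so the size of the change is uncertain. Both read 2.49-fold lower with RankL, and the ratios were -1.32 ± 0.10 for Ugt2b5 and -1.32 ± 0.28 for Ugt2b38. The bound of each sets the mean normalized untreated signal against the probe's own signal in RankL RNA. Such a bound equals the mean ratio and is no strict minimum, as Ugt2b38 lay at -1.12 on array 1.

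The remaining Ugt genes did not meet the size rule. Ugt2b35 lay at -0.68 ± 0.13, with -0.59 on array 1 and -0.77 on array 2. Ugt2b37 lay at -0.48 ± 0.42, with its RankL signal well above background on 1 of 2 arrays. Ugt2a1, an enzyme known from the olfactory epithelium, was dim in RankL RNA on both arrays. It lay at -0.57 ± 0.19, or 1.49-fold lower, a size that the dim signal leaves uncertain. For Ugt2b34, at -0.42 on array 1 and 0.03 on array 2, and for Ugt1a6b, at 0.05 and -0.48, the arrays differed in sign. Ugt1a6b belongs to the Ugt1a locus, whose enzymes share their last exons and conjugate phenols and bilirubin. Its chosen probe was bright in both RNAs, with 4458 in RankL and 5808 in untreated RNA on array 1, and 4966 and 7201 on array 2. Another probe of Ugt1a6b did not count as measured. That probe read 37 in RankL and 118 in untreated RNA on array 1, and 118 and 34 on array 2, with a ratio of 0.07. Ugt1a1 and Ugt1a9 were dim in both.

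The promoters of the 6 measured Ugt2b genes are shown because the genes lie in 1 cluster on chromosome 5 and include genes called lower and genes that were not. Capitals mark AGGTCA, the core that HNF4 and related nuclear receptors bind, which was searched on both strands and stood in 16.3% of all windows. Bases -120 to -1 are given on the gene's strand, from RefSeq GRCm38.p6.
Ugt2b36, chr5:87092556-87092675, minus strand: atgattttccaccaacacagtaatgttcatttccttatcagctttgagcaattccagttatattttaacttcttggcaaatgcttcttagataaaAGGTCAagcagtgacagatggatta
Ugt2b5, chr5:87140341-87140460, minus strand: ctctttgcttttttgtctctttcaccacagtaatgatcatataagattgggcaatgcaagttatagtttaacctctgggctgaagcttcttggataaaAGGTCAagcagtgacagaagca
Ugt2b38, chr5:87424204-87424323, minus strand: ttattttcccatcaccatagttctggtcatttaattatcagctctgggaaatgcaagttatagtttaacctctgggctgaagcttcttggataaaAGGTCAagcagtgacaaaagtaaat
Ugt2b35, chr5:87000740-87000859, plus strand: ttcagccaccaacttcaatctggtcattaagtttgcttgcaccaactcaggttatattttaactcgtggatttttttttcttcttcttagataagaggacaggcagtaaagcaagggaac
Ugt2b37, chr5:87254789-87254908, minus strand: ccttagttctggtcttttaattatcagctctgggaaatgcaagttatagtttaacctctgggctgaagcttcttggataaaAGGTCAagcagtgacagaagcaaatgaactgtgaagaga
Ugt2b34, chr5:86906938-86907057, minus strand: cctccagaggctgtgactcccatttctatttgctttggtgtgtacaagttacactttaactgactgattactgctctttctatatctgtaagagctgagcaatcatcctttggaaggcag
The core stood in the windows of 5 of the 6 genes. It began at -25 in Ugt2b36, -22 in Ugt2b5, -25 in Ugt2b38 and -39 in Ugt2b37, within nearly the same surrounding letters. In Ugt2b35 it began at -215, outside the stretch shown, and the window of Ugt2b34 had none. Ugt2b37 and Ugt2b38 were 90.0% identical over 250 upstream bases. Ugt2b38 and Ugt2b5, both dim in RankL RNA, were 84.8% identical, and pairs with Ugt2b34 were 57.6% to 62.4% identical. No unrelated promoters were aligned for comparison. Over all measured genes with a window, the core stood in 5 of the 13 lower genes (with Gstm1 and Sult1b1) and in 2 of the 19 others, or in 5 of 18 and 2 of 24 windows. Of these, Ugt2b36, Ugt2b38 and Ugt2b5 among the lower genes and Ugt2b37 among the others were measured only through the untreated RNA. Their promoters are alike and do not count as independent, and Sult1b1 lost its call with the median of its probes.

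The dim Ugt genes read lower in the scanner software's own ratios, which differ from those used here in background subtraction, offset and dye normalization at once. The software's ratios were -3.55 for Ugt2b5, -3.30 for Ugt2b36, -3.24 for Ugt2b38, -2.77 for Ugt2a3, -2.62 for Ugt2a1 and -1.97 for Ugt2b37. Some Gst genes also read lower there. Gsta4 read -2.33 (against -1.46 here), Gstm6 -1.87 (-1.03) and Gstm7 -1.35 (-0.24). With the software's ratios 21 of the 37 genes were lower (56.8%), against 6.07% of all measured genes, and 2 were higher (5.41%), against 8.92%. All 14 lower genes were among the 21, which also held Gstm4, Gstm7, Gstt1, Gstt2, Ugt2a1, Ugt2b35 and Ugt2b37, and Gstp3 was the added higher gene. With a size rule of 1.5-fold in place of 2-fold, 20 genes were lower (54.1%), against 7.25% of all measured genes, and 2 were higher (5.41%), against 10.8%.

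**Figure D4:**
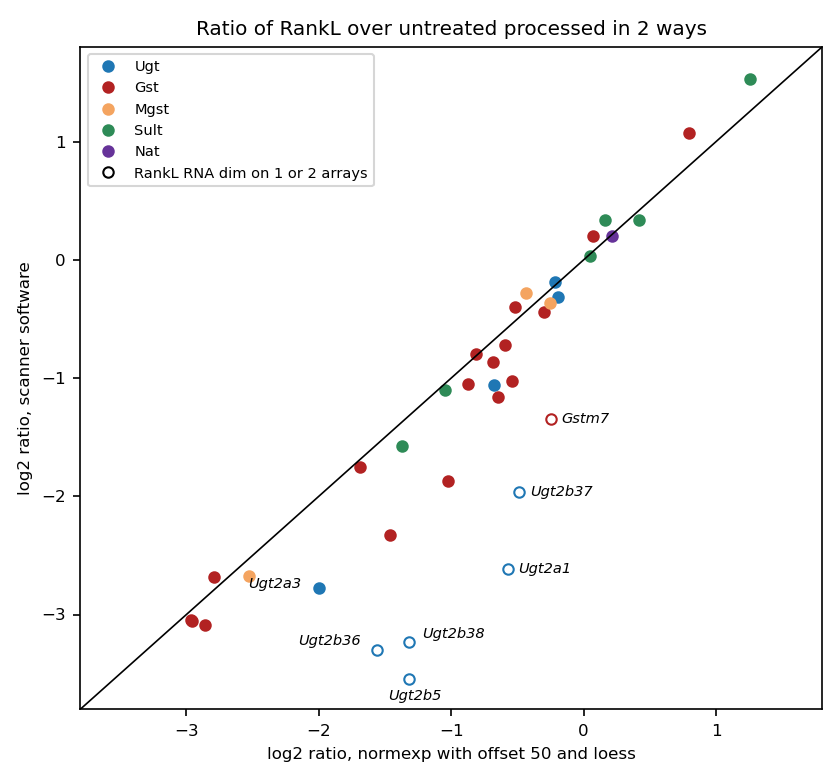
Mean log2 ratio of RankL over untreated for the 37 measured genes as processed here (horizontal) and as the scanner software gave it (vertical), coloured by class; open symbols are genes dim in RankL RNA on 1 or 2 arrays and the line marks equal ratios. The open Ugt symbols fall well below the line, such as Ugt2b5 at -1.32 and -3.55, while Gsta1 lies near it at -2.97 and -3.04.

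The sulfotransferases held genes in both directions. Sult1b1, which sulfates thyroid hormones and phenols, read 617 in RankL and 1653 in untreated RNA on array 1, and 789 and 1511 on array 2. Its ratio was -1.05 ± 0.030 (2.07-fold), but a dimmer probe of the gene gave -0.47, and with the median of both probes the gene was no longer called. Sult1d1, which sulfates catecholamines and other phenols, read 302 and 876.5 on array 1 and 361 and 940.5 on array 2. It lay at -1.09 on array 1 and -1.65 on array 2, with a mean of -1.37 ± 0.40 (2.59-fold). Both are neighbours of the Ugt2 genes on chromosome 5, where all 10 measured genes had means below 0. Of these 10, 5 were measured only through the untreated RNA, which favours that sign, and the 5 above background in both RNAs ran from -1.99 to -0.19.

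Sult2b1 was the conjugating enzyme gene called higher. Its enzyme sulfates cholesterol and other sterols. It read 535 in RankL and 289 in untreated RNA on array 1, and 542.5 and 208.5 on array 2, so the RankL signal was the higher on both arrays although the red background favours untreated RNA on array 1. The log2 ratio was 1.46 on array 1 and 1.06 on array 2, with a mean of 1.26 ± 0.28 or 2.39-fold. RANK is known to signal through NF-kB, and the kB-type letters GGGNNTTCC were searched on both strands. They stood in a window of Sult2b1 and in 1 of Gstm6, that is in 1 of 18 windows of lower genes and 1 of 24 of the others, against 5.82% of all windows. Bases -90 to -31 of Sult2b1 are given from RefSeq GRCm38.p6 with the match in capitals, on the opposite strand.
Sult2b1, chr7:45759643-45759702, minus strand: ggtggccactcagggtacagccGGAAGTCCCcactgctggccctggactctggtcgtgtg

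The other measured Sult genes met neither criterion. Sult1c2 lay at 0.42 ± 0.12, Sult1c1 at 0.04 ± 0.067 and Sult4a1, a brain sulfotransferase, at 0.16 ± 0.14. The 6 Sult2a genes with a named probe, whose enzymes sulfate bile acids and hydroxysteroids, did not count as measured, nor did Sult1a1 or the estrogen sulfotransferase Sult1e1. Sult2a8 was well above background on 1 of 2 arrays in each RNA. Nat2, an arylamine acetyltransferase, lay at 0.22 ± 0.15, and Nat1 was not measured. In all 20 of the 57 genes were not measured and get no ratio. Beside those named, they are Gsto2, Gstt4, Sult3a2, Sult5a1, Sult6b1, Ugt2b1, Ugt3a1, Ugt3a2 and Ugt8a.

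On each list of genes that supply or use the same cofactors, most measured genes met neither criterion. Of 13 measured genes of glutathione supply and use, 2 were higher, 2 were lower and 9 met neither criterion, with a median of -0.28. Gclc, the catalytic subunit of the enzyme that starts glutathione synthesis, was at 1.09 on array 1 and 1.30 on array 2 (1.19 ± 0.15), and the peroxidase Gpx1 at 1.18 and 1.00 (1.09 ± 0.13). Glutathione reductase Gsr lay at -0.86 and -1.21 (-1.04 ± 0.25), and Ggt1, which splits extracellular glutathione and its conjugates, at -1.05 and -1.11 (-1.08 ± 0.042). Of the other synthesis genes, Gclm lay at -0.20 ± 0.022 and Gss at -0.42 ± 0.52, both chosen after their values were seen. The RankL signal of Gclm was well above background on 1 of 2 arrays, and the scanner software's ratio for it was -0.90.

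Of 6 measured genes of UDP-glucuronate supply and removal, 1 was lower, 0 were higher and the median was 0.10. The lower gene was Ugdh, the dehydrogenase that makes UDP-glucuronate, at -1.56 on array 1 and -2.02 on array 2 (-1.79 ± 0.33). Of 8 measured genes of PAPS supply and sulfate 0 were called, with a median of 0.16. The PAPS synthase Papss1 lay at -0.73 ± 0.055, and the sulfate transporter Slc26a2 at 0.60 ± 0.20. Papss2, another PAPS synthase gene, was well above background in RankL RNA on both arrays, but its untreated signal was dim on both. Its ratio was 0.40 ± 0.25, while the scanner software's ratio for it was 1.41, so the size is uncertain. Of 10 measured genes of acyl, methyl and other conjugation, the epoxide hydrolase Ephx2 was higher at 1.11 ± 0.20 and 0 were lower, with a median of -0.05.

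Of 9 measured genes of conjugate efflux and related transport, 1 was higher, 1 was lower and the median was -0.07. The organic anion transporter Slco2b1 lay at -2.37 on array 1 and -2.03 on array 2 (-2.20 ± 0.24). Abcc5, an exporter of organic anions and nucleotides, was higher on both arrays (1.47 ± 0.035). The exporters Abcc1, at 0.65 ± 0.17, and Abcc3, at -0.58 ± 0.14, met neither criterion.

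**Figure D5:**
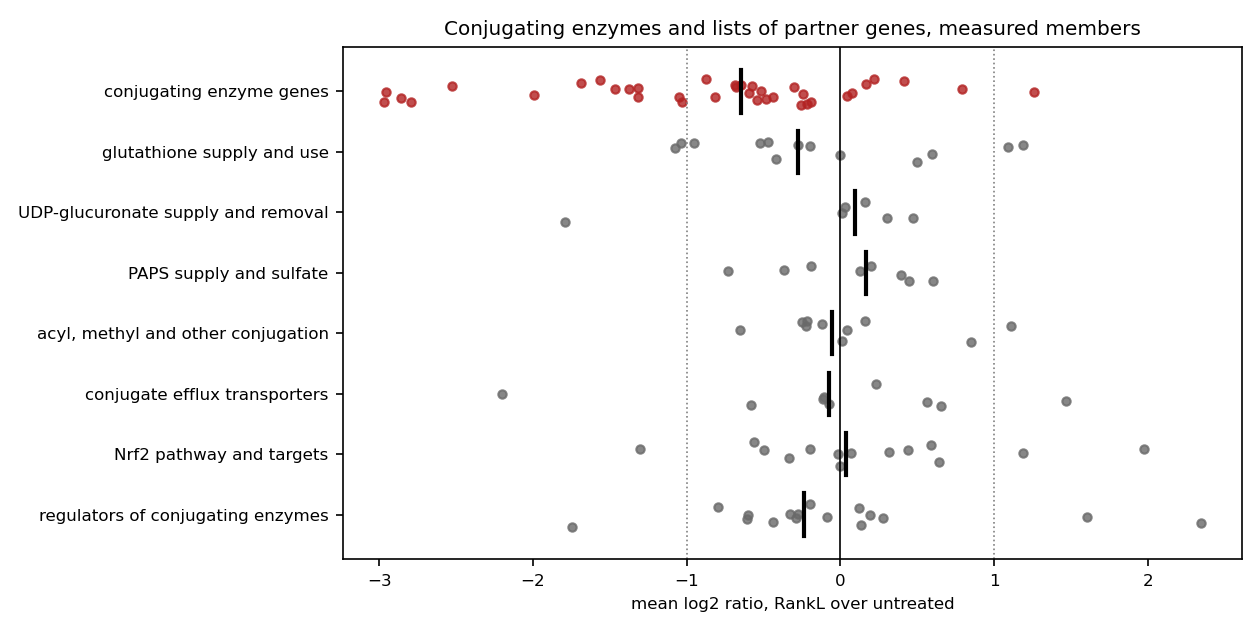
Mean log2 ratio of RankL over untreated for each measured gene (dots, spread vertically for sight) of the conjugating enzymes (red) and of 7 lists of partner genes (grey); bars are medians and dotted lines mark 2-fold. The median of the conjugating enzyme genes is -0.65, and the medians of the lists run from -0.28 to 0.16.

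The genes known to regulate conjugating enzymes also differed among themselves. Of 14 measured genes of the Nrf2 pathway, Gclc and the sulfiredoxin Srxn1 (1.97 ± 0.17) were higher and the quinone reductase Nqo1 (-1.30 ± 0.19) was lower, with a median of 0.03. Other probes of Srxn1 gave 1.36 to 1.47. Hmox1 lay at 0.64 ± 0.30 and met neither criterion. Of 16 measured transcription factors, the Ah receptor gene Ahr was higher at 2.36 on array 1 and 2.34 on array 2 (2.35 ± 0.013), as was Onecut2 (1.70 and 1.51, SD 0.13). Other probes of Onecut2 gave 0.998 to 1.44, the lowest of them just short of the size rule. The bile acid receptor gene Nr1h4 was lower at -1.81 and -1.69 (-1.75 ± 0.085). Ppara lay at -0.79 ± 0.22, and the median of the list was -0.24. All these ratios come from the same 2 arrays as those of the enzymes.

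Markers of intestinal cell types also differed between the RNAs, in both directions, and their part in the enzymes' ratios was not tested. Of 15 measured enterocyte markers 7 were higher (46.7%, against 5.47% of all measured genes) and 2 were lower (13.3%, against 2.5%). Other probes of Apob gave 0.28 to 0.43 (chosen probe 1.36), of Fabp2 0.59 (1.09), of Slc2a2 0.17 (0.98) and of Dpp4 -1.13 (-1.89). The median of the 15 markers was 0.98, and 11 of the 15 had means above 0. The aminopeptidase gene Anpep was the highest of them at 2.81 ± 0.23 and Fabp1, a fatty acid binding protein gene, the lowest at -3.02 ± 0.29. Their summed signal, background-subtracted but not dye-normalized, was 113785 and 134436 in RankL RNA on arrays 1 and 2, and 127850 and 143694 in untreated RNA. All sums given here lack dye normalization and cannot be set against the ratios. For the epithelial markers they were 116928 and 146797 in RankL RNA and 216337 and 165427 in untreated RNA, beside a median ratio of -0.22. Of 6 measured stem cell markers 2 were lower, Lgr5 at -2.30 ± 0.14 and Smoc2 at -1.48 ± 0.092, with summed signals of 2480 and 2915 against 6516.5 and 6709.5. The summed M cell signals were 67460 and 84721.5 in RankL RNA, against 6552 and 5925 in untreated RNA. Goblet markers had 3 higher and 2 lower of 7, Paneth markers 2 higher and 1 lower of 5, enteroendocrine markers 2 higher of 7 and tuft markers 1 higher of 5.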

How the data were processed

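Total RNA of RankL-treated and untreated organoids was measured on 2 dual-colour Agilent arrays on 1 slide, so no slide batch could be tested. The deposited scanner files hold intensity values of each spot and its surround (medians of pixels, not normalized) in both dyes, with flags as other values, per the file headers. The headers name Agilent Feature Extraction 10.5.1.1 and a design built on mm9, whereas the submitters' processing notes name 8.5.1.1. The same software gave the deposited log10 ratios, red over green, after background subtraction and dye normalization, per the file headers. The authors' deposited series matrix holds the same log10 ratios with array 1 turned to RankL over untreated (largest difference 5e-06, median 0 in both columns).

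Here background was corrected with normexp (offset 50) and ratios were normalized by loess within each array, with control spots at weight 0, in limma 3.58.1 under R 4.3.3. The 1639 control spots of 45018 and outlier spots (170 and 164 non-control) were left out; 0 spots were saturated. Well above background were 38.3% (RankL) and 39.6% (untreated) of spots on array 1, and 43.4% and 40.1% on array 2. Spots of a probe were averaged, and a gene was read from its brightest measured probe (for repeated probes, at least 0.5 of the spots well above background). Arrays were averaged as 1 replicate, with no test. Members dim in 1 RNA on both arrays got bounds from single-channel values (Aquantile after loess), which equalled their mean ratios.

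RefSeq accessions, without version, were looked up in a GRCm38.p6 gene table, which named 26918 of 41174 probes (65.4%). Coordinates are printed only for RefSeq promoters. No column was left unused (0). Steps were tested on simulated data. Every measured conjugating enzyme gene is named; of each partner list, the genes that met the size rule and, up to 4 in all, those with the largest ratios were candidates for naming. Marker genes and dim members were named beside them. The members and lists were chosen with earlier results of these data known. Alternatives were another offset, median centring, the software's ratios, other filters, the median of a gene's probes, outlier spots kept, a 1.5-fold rule and each array alone; bounds were added after the data were seen.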

Additional observations from a re-analysis of the deposited data

How the results depend on the processing

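The count of lower genes was 14 with offset 16, with median centring, with dim probes included, with outlier spots kept and on array 1 alone, 15 on array 2 alone, 13 with the median of a gene's probes (Sult1b1 was lost) and 11 among genes above background in both RNAs. It was 21 with the scanner software's ratios and 20 with the 1.5-fold rule. No called gene changed sign under any alternative. The count of higher genes was 1 except with the software's ratios and with the 1.5-fold rule, where it was 2. The Ugt median of -0.68 was -0.90 with offset 16, -0.76 with median centring, -2.62 with the software's ratios, -0.21 with dim probes included and -0.45 above background in both RNAs, and on single arrays it ran from -0.78 to -0.77. The median of Gst and Mgst genes, -0.68, was -0.83 with offset 16, -0.80 with median centring and -1.05 with the software's ratios, and on single arrays it ran from -0.81 to -0.70. The Sult median stayed between 0.03 and 0.18. The cause of these shifts was not tested. No paired analysis was possible because the arrays hold 1 RNA pair. A low signal over background limits what can be said of Ugt2b5, Ugt2b36, Ugt2b37, Ugt2b38, Ugt2a1 and Gstm7 in RankL RNA. Gsta4 and Gstm6 were above background in both RNAs, but their sizes also moved, to -1.77 and -1.29 with offset 16.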
